A study of Mus musculus with 12 samples.

Results

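The change in gene expression that DZNep brought about in cultured mouse podocytes kept in high glucose was measured by comparing 3 arrays of high glucose plus DZNep with 3 arrays of high glucose alone. A gene was a member when at least 1 of its probes had a detection p under 0.05 on at least 3 of these 6 arrays, which held for 9724 of the 19057 genes with a probe on the array. The series holds 12 Illumina mouse expression arrays in 4 groups of 3: control cells with neither agent, cells with DZNep for 48 h, cells with high glucose for 48 h, and cells with both for 48 h. The cells of every group are labelled as cultured podocytes from a cell line. The name of the line, the glucose concentrations and the dose of DZNep are not given in the sources used here, and an osmotic control was not analysed here. The groups without high glucose are referred to as normal glucose. Whether the replicates came from separate cultures is not stated, so the p-values rest on the spread among these arrays, which may be technical.

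Podocytes are the epithelial cells that cover the glomerular capillaries of the kidney, and their interlocking foot processes, joined by the slit diaphragm, hold back plasma protein. High glucose in culture is a common model of what these cells meet in diabetes. DZNep (deazaneplanocin A) is an adenosine analog that blocks the hydrolase of S-adenosylhomocysteine, a product of methyl transfer that inhibits methyltransferases when it accumulates. It is used to deplete EZH2, the enzyme of Polycomb repressive complex 2 (PRC2), which places a repressive methyl mark on histone H3, and it also acts on other methylation reactions.

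Over the members, the 6 arrays correlated at 0.986 to 0.997, and the first principal component of these arrays held 63.6% of the variance. The 12 arrays detected 38.4% to 41.3% of their probes, with median raw signals of 133 to 151. On the second component over 12 arrays (13.8% of the variance), control replicate 3 lay far from the rest; it enters the comparison only through normalization and the pooled spread. Levels are given as log2 of the background-corrected intensity plus 16 after quantile normalization, so that a change of 1 is a doubling of that sum and changes of dim genes are understated. Quantile normalization gives all arrays the same distribution, so changes are relative to the other genes. Nphs1, which encodes the slit diaphragm protein nephrin, was well detected, at 11.62 to 11.68 in high glucose and 11.72 to 11.82 with DZNep. Synpo (synaptopodin, an actin-binding foot process protein) lay at 13.16 to 13.37 over the 6 arrays. Pax6, a developmental transcription factor with 2 probes, was detected on 0 of the 6 arrays.

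With DZNep added in high glucose, 1312 of the 9724 genes (13.5%) rose and 1243 (12.8%) fell at an adjusted p under 0.05 in limma's moderated test, 2555 in all (26.3%). Most of the changes were small. The median log2 change was 0.41 among genes that rose and -0.43 among genes that fell, and 106 genes (1.09%) passed the test with a change of at least 2-fold, 48 of them higher and 58 lower. The 3 arrays of one group lay entirely beyond the 3 of the other in 4461 genes (45.9%), among them 2533 of the 2555 called. Such separation, where stated below, therefore adds little to a call. The split between the directions depended on the scaling: in the authors' processed values 1604 genes rose and 983 fell, so that 62% of calls were higher against 51.4% here, with the median of all genes at 0.041 there and 0.007 here. Centring the arrays on their medians in place of quantile normalization left 814 genes higher and 708 lower. Without replicate 2 of high glucose plus DZNep 836 were higher and 859 lower, without its replicate 3 these were 867 and 843, and without replicate 2 of high glucose 926 and 792.

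**Figure D1:**
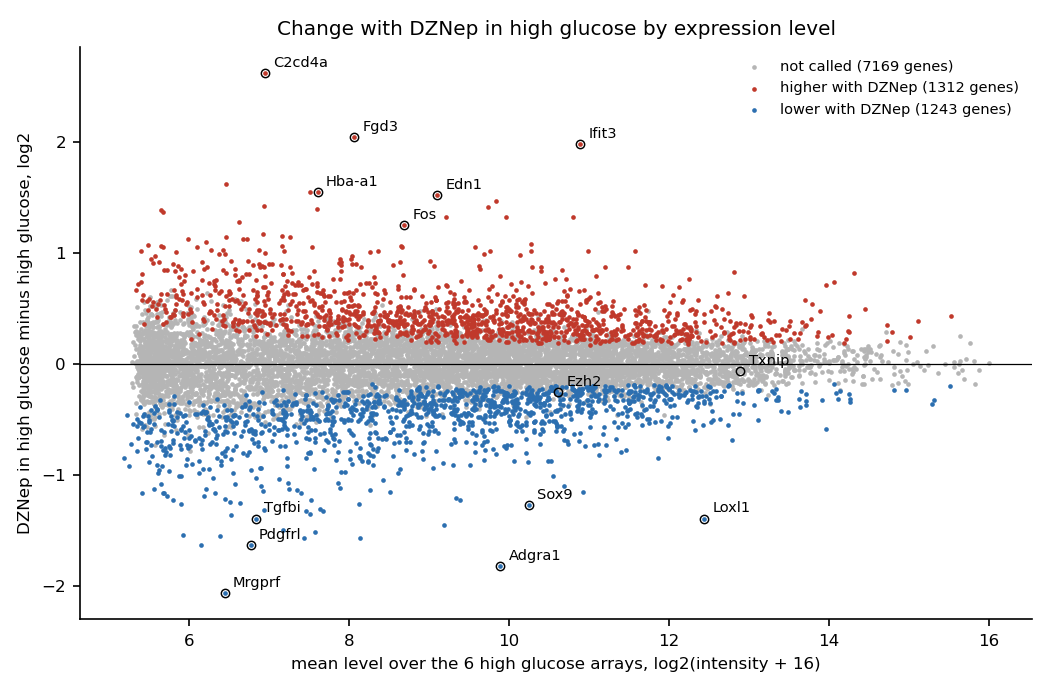
Log2 change with DZNep in high glucose (vertical) against the mean level over the 6 high glucose arrays (horizontal, log2 of intensity plus 16), 1 point per gene. The 1312 genes called higher are red, the 1243 called lower are blue, the others are grey, and circled genes carry their names.

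The share of genes called was lowest among dim genes. When genes were divided by level into 4 sets of equal size, 19.6% were called in the dimmest set (median level 6.09), against 29.3%, 30.5% and 25.7% in the next, whose median levels were 8.14, 9.91 and 11.78. At the edge of the detection rule, the 305 members detected on exactly 3 arrays had a median level of 5.46, and 375 genes left out with a probe detected on exactly 2 arrays had a median of 5.34. Of all members, 8895 were detected on all 6 arrays. Detection on all 3 arrays of only 1 of the groups was found for 509 members, 297 of them in high glucose and 212 with DZNep. Of these, 57 rose and 100 fell; since many could pass only through the group where they were brighter, these counts support nothing. Of the called genes, 1010 had further detected probes. In 34 of them a further probe was called in the opposite direction, and in 444 a further probe changed by less than 0.5 of the size or with the other sign, so that a call stands for the brightest probe of the gene.

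The 15 largest rises ran from 1.32 to 2.62 on the log2 scale and took in signalling, secreted and metabolic genes. C2cd4a, a C2-domain gene known to respond to cytokines in human endothelial cells, was at 5.82, 5.58 and 5.50 in high glucose and at 8.19, 8.26 and 8.30 with DZNep, a fold of 6.13 (log2 change 2.62, SE 0.102, adjusted p = 1.77e-07). Fgd3 was at 7.13, 6.93 and 7.07 in high glucose and at 9.11, 9.15 and 9.0 with DZNep (2.04, SE 0.092, adjusted p = 2.89e-07). The 3 arrays of each group lay close together for both genes, far from those of the other group. Edn1, the precursor of the vasoconstrictor endothelin-1, was at 8.14, 8.34 and 8.52 and then at 9.77, 9.94 and 9.86 (1.52, SE 0.1, adjusted p = 3.15e-06). Igfbp2, a binding protein of insulin-like growth factors, was at 6.23, 6.20 and 6.22 and then at 7.81, 7.56 and 7.54 (1.42, SE 0.146, adjusted p = 6.34e-05). All DZNep arrays were again above all high glucose arrays in both genes, as the rule that chose the largest changes required.

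Metabolic and trafficking genes among the largest rises were Slc25a2, a mitochondrial ornithine carrier detected on 2 of the 3 high glucose arrays (1.62), Cyp4a12b, a fatty acid hydroxylase (1.41), Atg9b, a membrane protein of autophagosome formation (1.32), and Sorl1, a sorting receptor. Sorl1 was detected on no high glucose array and was at least 1.87-fold higher with DZNep. Arvcf, a catenin of cell junctions, rose by 1.55, Anxa8, an annexin that binds phospholipid, by 1.40, and Sprr2g, a small proline-rich protein of the epidermal envelope, by 1.47. Ptx3, a secreted pentraxin of innate immunity, was at 8.58, 8.66 and 8.42 in high glucose and at 9.87, 9.82 and 9.93 with DZNep (1.32, SE 0.0843, adjusted p = 2.4e-06). Hba-a1, an alpha-globin gene, was at 6.80, 6.91 and 6.77 and then at 8.20, 8.46 and 8.46 (1.55, SE 0.0964, adjusted p = 2.03e-06). Ly6f, of the Ly6 family of membrane-anchored proteins, was detected on no high glucose array and was at least 1.89-fold higher. Hba-a1, Cyp4a12b and Ly6f have close relatives in the genome, and whether their probes tell these apart was not tested. Fgd3, Atg9b and Slc25a2 rose less at a further probe (0.71, 0.89 and 0.90), while Igfbp2 and Ptx3 rose by 1.31 and 1.28 at theirs.

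The 15 largest falls ran from -1.32 to -2.06 and included genes of membrane and secreted proteins. Mrgprf, an orphan G protein-coupled receptor, was at 7.40, 7.35 and 7.65 in high glucose and at 5.22, 5.51 and 5.50 with DZNep, a change of -2.06 (SE 0.156, adjusted p = 7.6e-06). Adgra1, an adhesion receptor, was at 10.81, 10.75 and 10.83 and then at 9.05, 8.94 and 8.95 (-1.82, SE 0.0799, adjusted p = 2.89e-07), and at a further probe the change was -1.41. Mrgprf was detected on 1 of the 3 DZNep arrays, so that its change is measured against values at or below the detection limit, whereas Adgra1 was detected on all 6 arrays. Loxl1, which crosslinks elastin, was the brightest of these genes, at 13.10, 13.07 and 13.23 and then at 11.68, 11.76 and 11.78 (-1.39, SE 0.067, adjusted p = 4.52e-07). Tgfbi, a matrix protein induced by TGF-beta, was at 7.55, 7.54 and 7.51 and then at 6.07, 6.02 and 6.34 (-1.39, SE 0.0888, adjusted p = 2.4e-06). No array of one group reached the other in any of these 4 genes, which the rule that chose the largest changes required.

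Receptors and signalling genes also among the largest falls were Pdgfrl, which resembles a growth factor receptor (-1.63), Gnaz, a G protein alpha subunit (-1.56), Sorcs2, a sorting receptor of the same family as Sorl1 (-1.49), Kcnab2, a potassium channel beta subunit (-1.45), and Flrt1, an adhesion protein (-1.32). Vit, which encodes the matrix protein vitrin, fell by 1.56, and the membrane genes Tmem44 and Tmem25, detected on 1 and 2 of the DZNep arrays, by 1.63 and 1.55. Nt5e, which encodes the ectoenzyme that makes adenosine from AMP, was at 6.42, 6.87 and 6.76 in high glucose and was detected on no array with DZNep, at least 2.31-fold lower (adjusted p = 4.11e-05). Adssl1, an enzyme of AMP synthesis, was at 8.16, 8.33 and 8.05 and then at 6.85, 6.87 and 6.77 (-1.35, SE 0.102, adjusted p = 7.6e-06). Dcp1b, a cofactor of mRNA decapping, fell by 1.36. At further probes Tmem44 changed by -0.02, Sorcs2 by -0.37, Dcp1b by -0.33, Flrt1 by -0.74 and Adssl1 by -1.17, so that the size of several of these falls rests on 1 probe. All 30 genes passed the test under every one of the 23 alternatives that tested them.

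**Figure D2:**
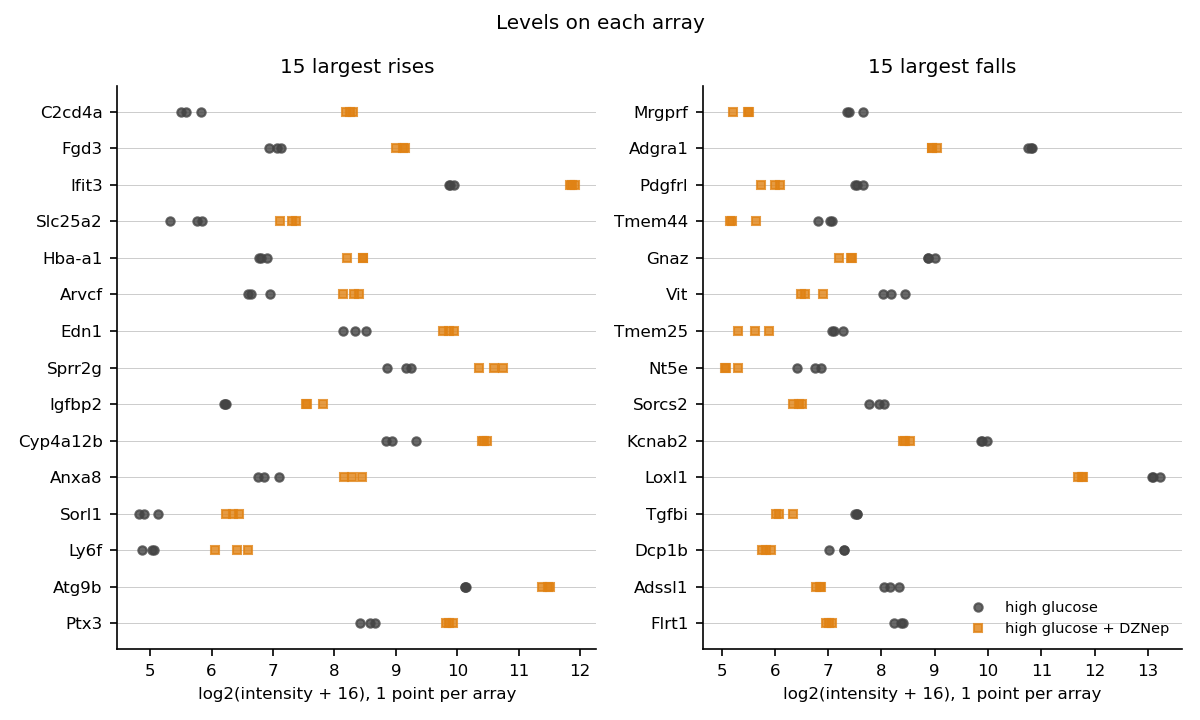
Level on each array (horizontal, log2 of intensity plus 16) of the 15 genes with the largest rises (left) and the 15 with the largest falls (right). Circles are the 3 high glucose arrays and squares the 3 arrays of high glucose plus DZNep. The groups do not overlap in any of the 30 genes because only such genes were chosen.

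Some genes crossed the detection limit. Detected on all 3 DZNep arrays and on none of the high glucose arrays were 25 genes, of which 19 passed the test, and the reverse held for 56 genes, of which 45 passed. As this selection fixes their direction, the counts are a description. Beside Ly6f and Sorl1, the former held Arhgef10, at least 1.67-fold higher, Taf7, a subunit of the general transcription factor TFIID, at least 1.57-fold, and the zinc finger gene Zfp74, at least 1.49-fold. Beside Nt5e, the latter held Atp1b2, a sodium pump subunit, at least 2.09-fold lower, Mcf2l and Tmie, both at least 1.72-fold, and Blnk, an adaptor of B cell signalling, at least 1.68-fold. In such bulk samples fewer expressing cells and less RNA per cell cannot be told apart.

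The enzyme that DZNep is used against did not pass the test at the level of RNA. Ezh2 was at 10.79, 10.66 and 10.78 in high glucose and at 10.55, 10.51 and 10.42 with DZNep, a change of -0.25 (SE 0.0934, adjusted p = 0.0663). All 3 DZNep arrays lay below all high glucose arrays, and its further probe changed by -0.47. The adjusted p of Ezh2 lay between 0.0187 and 0.272 over the alternatives, under the threshold in 5 of 23. Its paralog Ezh1 changed by 0.07 (adjusted p = 0.813), the scaffold subunit Suz12 by -0.04 (adjusted p = 0.756) and Eed, which reads the methyl mark, by 0.28 (adjusted p = 0.329). Of 12 listed subunits and partners of PRC2, 10 were measured. Of these 0 rose (against 13.5% of all genes) and 2 fell (20%, against 12.8%), with a median change of -0.12 against 0.007 for all genes. The 2 were Epop (-0.59, adjusted p = 0.0141) and Phf19 (-0.39, adjusted p = 0.0216), both accessory factors. Epop was detected on 1 of the 3 DZNep arrays, and among the other 9 members 1 fell. The call on Epop ended without replicate 1 of either group (adjusted p up to 0.057), and that on Phf19 under 7 alternatives (adjusted p up to 0.0779).

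Of 21 listed subunits of the sister complex PRC1, 19 were measured, 2 rose (10.5%, against 13.5% of all genes) and 3 fell (15.8%, against 12.8%). Scmh1, a Polycomb protein, rose by 0.51 (adjusted p = 0.000955), and Pcgf1, a ring finger subunit of variant PRC1, fell by 0.40 (adjusted p = 0.00165). Of the further enzymes that add or remove histone methyl groups 42 were listed and 38 measured. Of these 3 rose (7.89%, against 13.5% of all genes) and 9 fell (23.7%, against 12.8%), with a median change of -0.01. Kmt5b, which methylates histone H4, was at 9.44, 9.52 and 9.30 in high glucose and at 8.79, 8.73 and 8.87 with DZNep (-0.62, SE 0.0873, adjusted p = 0.000495), and its further probes changed by -0.25, -0.28 and -0.49. Kdm6b, a demethylase that removes the mark EZH2 places, fell by 0.44 (adjusted p = 0.00753), with 0 and -0.08 at its further probes. Setd7 changed by -0.55 at its brightest probe but by 0.44 and 0.62 at the others, so its direction is not settled. Of 8 measured of 14 genes that methylate DNA or read that mark, 1 rose (12.5%, near the 13.5% of all genes).

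S-adenosylhomocysteine is made and removed in the methionine cycle. Of 25 listed enzymes of this cycle, of linked folate steps and of polyamine synthesis 16 were measured. Of these 6 rose (37.5%, against 13.5% of all genes) and 0 fell (against 12.8%), with a median change of 0.13. Over the alternatives 1 to 8 rose and 0 or 1 fell. At normal glucose 7 of the 16 were higher and 2 lower, where 21.4% of all genes were higher and 14.3% lower. Ahcy, the hydrolase that DZNep blocks, was at 9.44, 9.34 and 9.23 in high glucose and at 9.51, 9.56 and 9.37 with DZNep, overlapping groups with a change of 0.14 (SE 0.112, adjusted p = 0.384) and 0.43 at its further probe. Odc1, the first enzyme of polyamine synthesis, was at 12.96, 13.13 and 13.29 and then at 13.42, 13.55 and 13.57 (0.39, SE 0.0825, adjusted p = 0.00555). Shmt2, which feeds serine carbon into the folate pool, changed by 0.55 (adjusted p = 0.000872) at its brightest probe and by -0.03 at the other.

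Interferon-stimulated genes had the largest share of higher members of any list with at least 10 measured, also under 20 of the 23 alternatives. With arrays centred on their medians 34.6% were higher against 37% of the MAP kinase list, with no filter 32.5% against 33.3% of p53 targets, and without replicate 3 of high glucose plus DZNep 44% against 44.4% of the MAP kinase list. Of 43 listed, 26 were measured, 14 rose (53.8%, against 13.5% of all genes) and 2 fell (7.69%, against 12.8%), with a median change of 0.28. Rtp4 and Mx2 were detected on all arrays of only 1 group; among the other 24 members 13 rose and 2 fell. Over the alternatives 9 to 16 rose and 1 or 2 fell. Ifit3, an antiviral protein with tetratricopeptide repeats, was at 9.87, 9.88 and 9.94 in high glucose and at 11.87, 11.84 and 11.91 with DZNep (1.98, SE 0.108, adjusted p = 9e-07), and rose by 1.27 at its further probe. Isg15, a ubiquitin-like modifier, was at 8.59, 8.60 and 8.69 and then at 9.59, 9.42 and 9.50 (0.88, SE 0.0783, adjusted p = 2.82e-05). Igtp, a GTPase induced by interferon gamma, was at 9.75, 9.53 and 9.70 and then at 10.27, 10.43 and 10.46 (0.72, SE 0.0842, adjusted p = 0.000147). In all 3 genes the groups were apart on every array.

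The promoters of these 3 genes are shown because the list is defined by a shared response and such genes are known to carry an element with a repeated GAAA core. The windows hold the 250 bases before the start given by RefSeq (build GRCm38.p6), written on the strand of the gene: chr19:34583279-34583528 on the plus strand for Ifit3, chr4:156200819-156201068 on the minus strand for Isg15 and chr11:58199306-58199555 on the plus strand for Igtp. Capitals mark matches to GAAANNGAAA on either strand.
Ifit3: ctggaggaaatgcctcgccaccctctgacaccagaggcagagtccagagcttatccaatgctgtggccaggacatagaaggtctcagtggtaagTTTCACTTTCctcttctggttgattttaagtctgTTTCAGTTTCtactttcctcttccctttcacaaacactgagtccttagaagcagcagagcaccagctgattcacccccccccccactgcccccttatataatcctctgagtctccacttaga
Isg15: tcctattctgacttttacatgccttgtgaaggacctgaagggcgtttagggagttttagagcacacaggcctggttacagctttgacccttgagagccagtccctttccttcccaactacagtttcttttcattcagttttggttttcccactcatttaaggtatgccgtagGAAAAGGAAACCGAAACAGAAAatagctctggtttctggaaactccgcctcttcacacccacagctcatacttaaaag
Igtp: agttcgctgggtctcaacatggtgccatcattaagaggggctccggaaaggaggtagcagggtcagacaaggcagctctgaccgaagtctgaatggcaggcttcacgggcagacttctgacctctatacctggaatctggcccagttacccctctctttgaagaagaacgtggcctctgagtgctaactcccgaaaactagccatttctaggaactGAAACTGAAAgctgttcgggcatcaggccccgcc
Ifit3 holds 2 matches, starting 156 and 122 bases before the start, Isg15 holds 3 that overlap each other, starting at 78, 72 and 66 bases, and Igtp holds 1, at 34 bases. The letters were present in 6 of the 10 members that rose and have a window (60%), in 10 of 19 measured members with one (52.6%), and in 2.67% of the 7917 members of the whole comparison with one. Among all genes that rose 3.82% held them, among those that fell 2.4% and among those not called 2.5%. A match is a description of these letters and not a tested site.

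Further interferon-stimulated genes that rose were Gbp3, a guanylate-binding GTPase (0.60), Parp14, an ADP-ribosyltransferase (0.60), Ifit2 (0.56), Usp18, which removes Isg15 from proteins (0.51), Ifi35 (0.48), Irgm1 (0.38), the membrane restriction factor Ifitm3 (0.35) and Stat2, a transcription factor of the interferon response (0.28). Rtp4 was detected on no high glucose array and was at least 1.18-fold higher. The members that fell were Ifitm2 (-0.55, adjusted p = 0.000345) and Eif2ak2, the kinase that senses double-stranded RNA (-0.26, adjusted p = 0.0297). Of 15 measured of 20 antigen presentation genes 3 rose (20%, against 13.5% of all genes) and 0 fell (against 12.8%), and over the alternatives 0 to 4 rose. The largest of these, the class I gene H2-Q7, changed by 0.56 (adjusted p = 0.0124), a call that ended without replicate 2 of high glucose plus DZNep (adjusted p = 0.0515).

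The list of immediate early genes and feedback phosphatases of MAP kinase signalling held 39 genes, of which 27 were measured, 13 rose (48.1%, against 13.5% of all genes) and 1 fell (3.7%, against 12.8%), with a median change of 0.25, and 10 to 14 rose over the alternatives. Dusp2 was detected on all arrays of only 1 group, and among the other 26 members 12 rose and 1 fell. Fos, a subunit of the AP-1 transcription factor, was at 8.20, 8.13 and 7.86 in high glucose and at 9.43, 9.27 and 9.23 with DZNep (1.25, SE 0.12, adjusted p = 4.11e-05). Dusp6, a phosphatase of ERK, was at 10.26, 10.23 and 10.22 and then at 11.08, 11.14 and 11.06 (0.85, SE 0.0599, adjusted p = 4.9e-06), and rose by 0.65 at its further probe. Transcription factors and phosphatases of the same list rose together: Dusp4 by 0.90, Etv4 by 0.77, Junb by 0.57, Egr1 by 0.56, Dusp5 by 0.53 and Jun by 0.48. Klf2 was the member that fell (-0.84, adjusted p = 0.0244), a call that ended without replicate 2 of high glucose plus DZNep, replicate 2 of high glucose or its replicate 3 (adjusted p up to 0.0929).

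**Figure D3:**
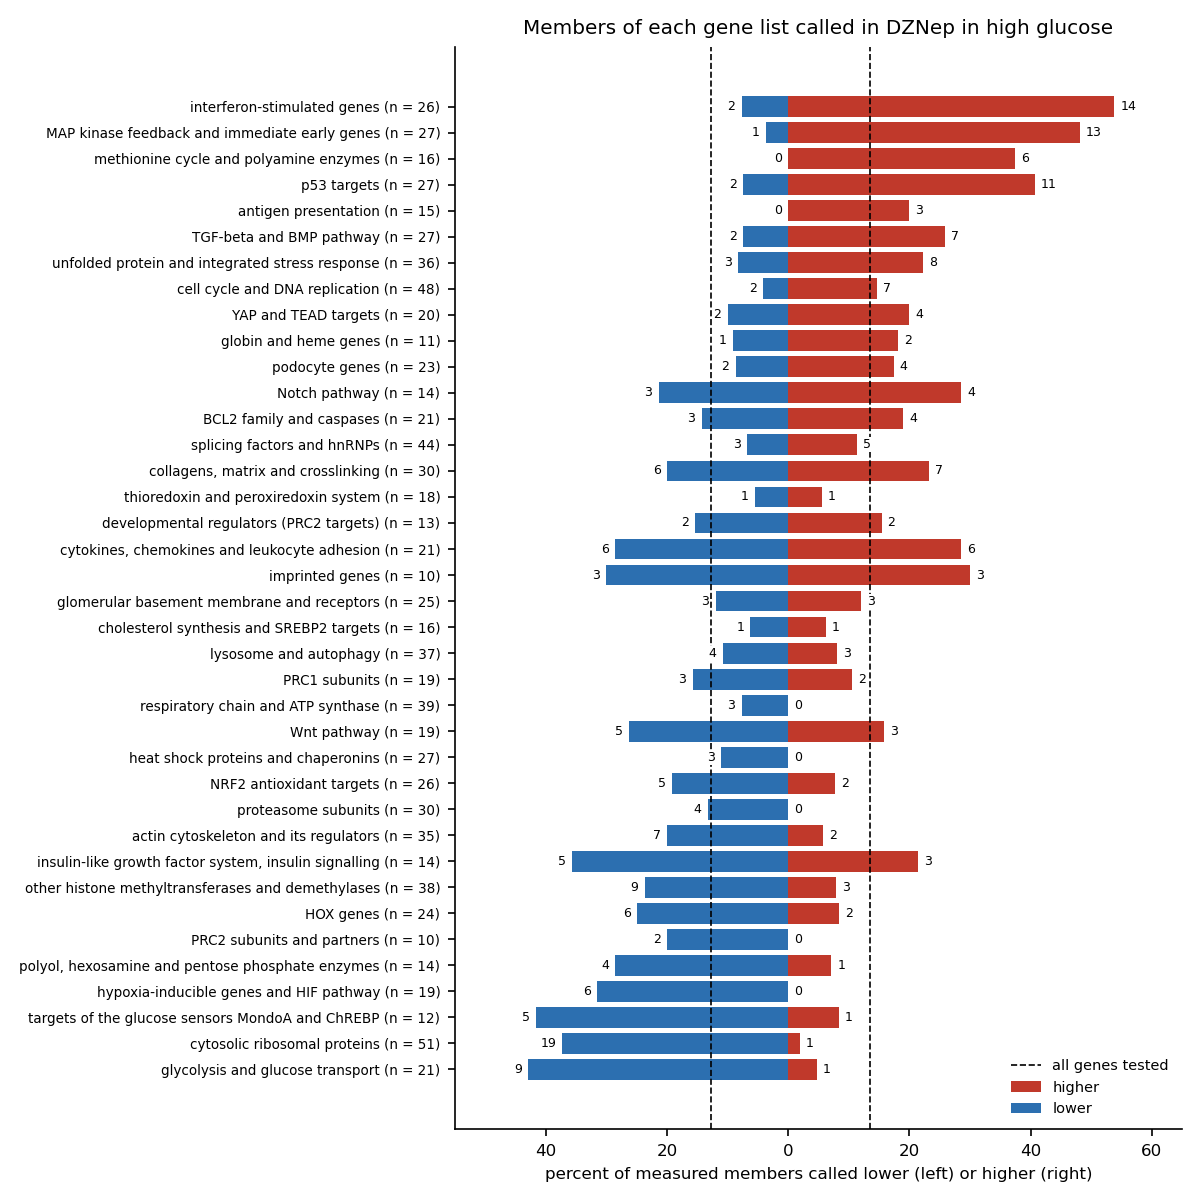
Share of the measured members of each gene list called higher (red, to the right) or lower (blue, to the left) with DZNep in high glucose, for lists with at least 10 measured members. Numbers beside the bars are counts of members, and dashed lines mark the shares among all genes tested, 13.5% higher and 12.8% lower.

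Of 31 listed targets of p53, 27 were measured, with 11 higher (40.7%, against 13.5% of all genes) and 2 lower (7.41%, against 12.8%), a median change of 0.29, and 7 to 12 higher over the alternatives. Mdm2, the ligase that degrades p53, was at 13.52, 13.63 and 13.69 in high glucose and at 14.37, 14.27 and 14.32 with DZNep (0.71, SE 0.0842, adjusted p = 0.000171). Fas, a death receptor, was at 11.75, 11.80 and 11.79 and then at 12.48, 12.50 and 12.43 (0.69, SE 0.0648, adjusted p = 3.5e-05), with 0.52 at its further probe. All DZNep arrays lay above all high glucose arrays for both. Aen, an apoptosis-linked nuclease, rose by 0.69, Pidd1, a death domain protein, by 0.59, Gadd45b by 0.55 and the cyclin kinase inhibitor Cdkn1a by 0.30 (adjusted p = 0.0228). Sesn1, a sestrin, was the member that fell most (-0.47, adjusted p = 0.00211).

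In the list of 21 measured members of the BCL2 family and caspases, of 30 listed, 4 rose (19%, against 13.5% of all genes) and 3 fell (14.3%, against 12.8%). Bmf, which promotes cell death by binding BCL2 proteins, was at 8.41, 8.44 and 8.46 in high glucose and at 7.21, 7.33 and 7.43 with DZNep (-1.11, SE 0.132, adjusted p = 0.000166). The survival genes Bcl2l1 and Birc2 rose by 0.45 and 0.41, and at every further probe of theirs the change was also positive. Of 48 measured of 55 cell cycle and replication genes 7 rose and 2 fell, shares of 14.6% and 4.17% against 13.5% and 12.8% of all genes, with a median change of 0.03. Foxm1, a transcription factor of mitotic genes, rose by 0.40 (adjusted p = 0.000879), with 0.39 at its further probe. The ribonucleotide reductase subunit Rrm2 changed by 0.49 at its brightest probe but by -0.44 and 0.33 at the others. Cdkn1b, a brake on the cell cycle, changed by -0.50 (adjusted p = 0.0133), and its call ended without replicate 3 of high glucose plus DZNep or without replicate 2 of high glucose (adjusted p up to 0.0552).

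Stress response genes of the unfolded protein and related pathways numbered 41, of which 36 were measured, 8 rose (22.2%, against 13.5% of all genes) and 3 fell (8.33%, against 12.8%), with a median change of 0.10. Hspa5 and Eif2ak3 were detected on all arrays of only 1 group, and among the other 34 members 8 rose and 2 fell. Ddit3, which encodes the transcription factor CHOP, was at 11.08, 10.99 and 11.03 in high glucose and at 11.53, 11.55 and 11.57 with DZNep (0.52, SE 0.0872, adjusted p = 0.00153), with 0.47 at its further probe. Vldlr, a lipoprotein receptor that this response can induce, fell instead, by 0.60 (adjusted p = 0.000128). Eif2ak3, the sensor kinase PERK, was detected on no DZNep array and was at least 1.17-fold lower. Among 27 heat shock proteins and chaperonins of 31 listed 0 rose (against 13.5% of all genes) and 3 fell (11.1%, near the 12.8% of all genes). The first of those that fell was Cct7 (-0.47), whose call ended under 9 alternatives (adjusted p up to 0.11). Cct2 and Cct7 were detected on all arrays of only 1 group, and among the other 25 members 2 fell. Among genes for lysosomes and autophagy, 42 listed and 37 measured, 3 rose (8.11%, against 13.5% of all genes) and 4 fell (10.8%, against 12.8%). Glb1, the lysosomal beta-galactosidase, changed by -0.80 (adjusted p = 7.94e-05) and by -0.19 at its further probe.

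Of 29 listed genes of glycolysis and glucose transport 21 were measured, with a median change of -0.18. Of these 1 rose (4.76%, against 13.5% of all genes) and 9 fell (42.9%, against 12.8%), with 6 to 11 lower over the alternatives. This was the largest share lower of any list with at least 10 measured, as it was alone under 13 of the 23 alternatives; ribosomal proteins or the targets of MondoA and ChREBP had a larger share under 8, and 2 gave a tie. Pdk1, a kinase that holds pyruvate back from the mitochondrion, was at 8.24, 8.50 and 8.40 in high glucose and at 7.47, 7.62 and 7.13 with DZNep (-0.97, SE 0.132, adjusted p = 0.000393). Aldoa, an aldolase, was at 12.46, 12.54 and 12.64 and then at 12.05, 12.01 and 12.05 (-0.51, SE 0.0745, adjusted p = 0.000602). Both were lower on every DZNep array. Smaller falls covered steps along the pathway: Pgk1 by 0.48, Ldha by 0.42, Gapdh by 0.34, Slc2a1, the glucose transporter, by 0.29 and Pfkm by 0.26. Aldoc changed by -0.57 (adjusted p = 0.045), and its call ended under 10 alternatives, among them the removal of single arrays (adjusted p up to 0.154). Ldhb, the lactate dehydrogenase subunit that rose (0.62, adjusted p = 0.0182), lost its call without replicate 2 of high glucose plus DZNep or replicate 1 of high glucose (adjusted p up to 0.0711).

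Several glycolytic genes are known targets of hypoxia-inducible factor. Of 25 listed genes of that pathway 19 were measured, with a median change of -0.13. Of these 6 fell (31.6%, against 12.8% of all genes) and 0 rose (against 13.5%), and 2 to 7 fell over the alternatives. Ankrd37, a strong hypoxia target in other cells, was at 8.34, 8.31 and 7.75 in high glucose and at 7.16, 6.84 and 6.75 with DZNep (-1.22, SE 0.177, adjusted p = 0.000605). Ndrg1 was at 11.89, 12.02 and 12.13 and then at 11.49, 11.54 and 11.42 (-0.53, SE 0.0816, adjusted p = 0.000845), with -0.79 at its further probe. The high glucose replicate 3 was the lowest of its group for Ankrd37 yet above every DZNep array. Vegfa, the endothelial growth factor that podocytes secrete, changed by -0.30 (adjusted p = 0.0437), and its call ended under 12 alternatives (adjusted p up to 0.213). The core ACGTG of the hypoxia response element was sought on either strand in the 250-base windows. Of this list 16 measured genes had a window, and 7 held the core (43.8%). Of those that fell 4 had a window, and 1 held it (25%). Among all members with a window the share was 22.1%. In the glycolysis list it stood in 8 of 21 measured genes with a window (38.1%) and 4 of the 9 that fell (44.4%). For the MAP kinase list it stood in 11 of 23 such genes (47.8%) and for ribosomal proteins in 8 of 43 (18.6%). Among p53 targets it stood in 4 of 20 (20%) and among interferon-stimulated genes in 3 of 19 (15.8%). The windows of Pdk1, Aldoc and Aldoa, the largest falls of the glycolysis list, held 0 matches each. Only 1 window was taken per gene, so other starts were not searched. A match or its absence describes these letters and is not a tested site.

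Of 21 listed targets of MondoA and ChREBP, transcription factors that sense glucose, 12 were measured, with a median change of -0.14. Of these 5 fell (41.7%, against 12.8% of all genes) and 1 rose (8.33%, against 13.5%). Acacb was detected on all arrays of only 1 group, and among the other 11 members 4 fell and 1 rose. Scd1, which desaturates fatty acids, was at 9.95, 9.96 and 9.98 in high glucose and at 9.24, 9.29 and 9.0 with DZNep (-0.79, SE 0.105, adjusted p = 0.000352). Its paralog Scd2 fell by 0.64, while Elovl6, which lengthens fatty acids, rose by 0.53 (adjusted p = 0.00441). Txnip, a target of both factors and an inhibitor of thioredoxin, was at 12.87, 12.91 and 12.97 and then at 12.83, 12.87 and 12.88, overlapping groups with a change of -0.06 (SE 0.0605, adjusted p = 0.516). Of 14 measured of 19 polyol, hexosamine and pentose phosphate enzymes 4 fell (28.6%, against 12.8% of all genes) and 1 rose (7.14%, against 13.5%). Tkt, a transketolase that also stands in the list of glucose-sensing targets, fell by 0.54 (adjusted p = 0.00132), and Khk, which phosphorylates fructose, by 0.43 (adjusted p = 0.00783). In cholesterol synthesis 1 of 16 measured members (26 listed) rose and 1 fell (6.25% each, against 13.5% and 12.8% of all genes). Mvk, mevalonate kinase, rose by 1.01 (adjusted p = 5.79e-05).

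Of 78 listed genes of cytosolic ribosomal proteins 51 were measured, with a median change of -0.17. Of these 19 fell (37.3%, against 12.8% of all genes), 31 were not called and 1 rose (1.96%, against 13.5%). Over the alternatives 14 to 29 fell. Rpl7a was at 11.74, 11.62 and 11.38 in high glucose and at 10.99, 10.77 and 10.79 with DZNep (-0.73, SE 0.103, adjusted p = 0.000502). Rplp0, a stalk protein of the large subunit, was at 10.82, 10.80 and 10.63 and then at 10.08, 10.05 and 9.97 (-0.72, SE 0.0821, adjusted p = 0.000124). The groups did not overlap for either gene. Ribosomal protein genes have many processed copies in the genome, and whether a probe also binds RNA of such copies was not tested. Among proteins of the respiratory chain 3 of 39 measured (45 listed) fell (7.69%) and 0 rose. Among proteasome subunits 4 of 30 (35 listed) fell (13.3%) and 0 rose, and among splicing factors 3 of 44 (50 listed) fell (6.82%) and 5 rose (11.4%). Of all genes 12.8% fell and 13.5% rose. Ndufb5, of respiratory complex I, fell by 0.59 (adjusted p = 0.00102), and the largest called fall of a proteasome subunit was that of Psmb1 (-0.24, adjusted p = 0.0178), whose call ended under 5 alternatives (adjusted p up to 0.0815).

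Matrix genes went both ways. Of 30 measured of 42 collagens, matrix and crosslinking genes, 7 rose (23.3%, against 13.5% of all genes) and 6 fell (20%, against 12.8%), with a median change of -0.04. Beside Loxl1 and Tgfbi, the falls included the protease Mmp9 (-0.80, adjusted p = 0.000509) and the collagen chain Col5a1 (-0.52, adjusted p = 0.000122). Ccn2, a matricellular growth factor that TGF-beta and YAP induce, was at 13.92, 13.88 and 13.87 in high glucose and at 14.74, 14.77 and 14.63 with DZNep (0.82, SE 0.0606, adjusted p = 6.93e-06), with 0.63 at its further probe. Thbs1, the matrix glycoprotein thrombospondin, was at 8.08, 7.57 and 7.48 and then at 8.51, 8.54 and 8.69 (0.87, SE 0.197, adjusted p = 0.00783). High glucose replicate 1 was the nearest to the DZNep arrays for Thbs1. Of 20 measured of 25 targets of YAP and TEAD 4 rose (20%, against 13.5% of all genes) and 2 fell (10%, against 12.8%). Ajuba and Nt5e were detected on all arrays of only 1 group, and among the other 18 members 4 rose and 1 fell. Ccn1 rose by 0.77 (adjusted p = 0.000234) and Ankrd1, a cardiac ankyrin repeat protein, by 0.74 (adjusted p = 9.6e-05), while Nt5e fell.

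In the TGF-beta and BMP pathway 7 of 27 measured members rose (25.9%, against 13.5% of all genes) and 2 fell (7.41%, against 12.8%) of 37 listed, with a median change of -0.01. Bmp4, a secreted ligand, was at 10.27, 10.50 and 10.67 in high glucose and at 11.45, 11.46 and 11.58 with DZNep (1.02, SE 0.104, adjusted p = 6.27e-05). Id1, a target of BMP signalling that blocks other transcription factors, reached 10.53, 10.49 and 10.56 with DZNep, above all high glucose arrays (0.74, SE 0.091, adjusted p = 0.000209), and Id2 rose by 0.54. Inhba, the activin subunit, and Fst, which binds activin, both rose, by 0.50 and 0.43, and Ltbp3, which stores latent TGF-beta, fell by 0.41 (adjusted p = 0.00223). In the Wnt pathway 3 of 19 measured (39 listed) rose (15.8%, against 13.5% of all genes) and 5 fell (26.3%, against 12.8%). The receptor Fzd5 rose by 0.70 (0.13 at its further probe), the ligand Wnt5a by 0.49, and the repressor Tcf7l1 fell by 0.48. In the Notch pathway 4 of 14 (23 listed) rose (28.6%, against 13.5% of all genes) and 3 fell (21.4%, against 12.8%). Notch2, Nrarp and Jag1 were detected on all arrays of only 1 group, and among the other 11 members 3 rose and 3 fell. The receptor Notch3 rose by 0.75 and the target Hey2 by 0.80, and its relative Hey1 fell by 0.57. In the insulin-like growth factor system 3 of 14 (24 listed) rose (21.4%, against 13.5% of all genes) and 5 fell (35.7%, against 12.8%). Irs2, an adaptor of the insulin receptor, rose by 0.70, and the binding protein Igfbp6 fell by 0.87, against the rise of Igfbp2.

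Of 39 listed podocyte genes 23 were measured, 4 rose (17.4%, against 13.5% of all genes) and 2 fell (8.7%, against 12.8%), shares near those of all genes, with a median change of -0.04, and over the alternatives 0 to 5 rose and 0 to 3 fell. Clic5 and Sema3g were detected on all arrays of only 1 group, and among the other 21 members 3 rose and 1 fell. Nphs1 changed by 0.12 (SE 0.0631, adjusted p = 0.178) and Synpo by 0.00 (SE 0.0883, adjusted p = 1). Podxl, the sialoprotein of the podocyte surface, changed by -0.53 (adjusted p = 0.17), and Cd2ap, an adaptor at the slit diaphragm, by -0.26 (adjusted p = 0.147). The chaperone Cryab rose by 0.39 (adjusted p = 0.00561), with the call lost only when arrays were centred on their medians. The larger change of Clic5, a foot process protein (0.66, adjusted p = 0.0437), did not hold under 12 alternatives (adjusted p up to 0.133), nor did that of Sema3g (-0.43, adjusted p = 0.0391) under 10 (adjusted p up to 0.143). In the glomerular basement membrane and its receptors 3 of 25 measured (34 listed) rose and 3 fell (12% each, near the shares of all genes). Itga6 was detected on all arrays of only 1 group, and among the other 24 members 3 rose and 2 fell. The linker proteins Nid1 and Nid2 rose by 0.52 and 0.42, and the integrin chain Itgb4 changed by -0.60 (-0.24 at its further probe). Of 35 measured of 42 genes of the actin cytoskeleton and its regulators 2 rose (5.71%, against 13.5% of all genes) and 7 fell (20%, against 12.8%). The focal adhesion protein Zyx was higher by 0.43 (adjusted p = 0.000533) and the tropomyosin Tpm2 lower (-0.57, adjusted p = 0.000832).

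Redox genes showed a few large changes on a flat median. Of 26 measured of 30 NRF2 targets 2 rose (7.69%, against 13.5% of all genes) and 5 fell (19.2%, against 12.8%), with a median change of -0.03. Gss, glutathione synthetase, was at 8.13, 8.15 and 8.24 in high glucose and at 9.03, 9.02 and 9.23 with DZNep (0.92, SE 0.0826, adjusted p = 2.82e-05), and its further probes changed by 0.06, 0.53 and 0.85. Srxn1, sulfiredoxin, was at 10.61, 10.69 and 10.73 and then at 9.82, 9.77 and 9.81 (-0.88, SE 0.0679, adjusted p = 8.96e-06), with -0.85 and -0.83 at the others. In the thioredoxin and peroxiredoxin system 1 of 18 measured members (21 listed) rose, the reductase Txnrd3 by 0.65 (adjusted p = 0.000126), and 1 fell (5.56% each, against 13.5% and 12.8% of all genes). Of 5 measured of 16 NADPH oxidase and superoxide genes 1 rose (20%, against 13.5% of all genes).

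Cytokines, chemokines and adhesion genes divided evenly, with 6 of 21 measured members higher and 6 lower (28.6% each, against 13.5% and 12.8% of all genes) of 40 listed. Lcn2 and Ccl8 were detected on all arrays of only 1 group, and among the other 19 members 6 rose and 5 fell. Cxcl12, a chemokine that podocytes make, was at most 10.09 in high glucose and at 10.86, 10.81 and 10.82 with DZNep (0.87, SE 0.0831, adjusted p = 3.96e-05), with 0.58 and 0.53 at its further probes. Lif, a cytokine of the interleukin-6 family, rose by 0.65, and Icam1, which binds leukocytes, by 0.63 (adjusted p = 0.000546). Vcam1, an adhesion molecule with a like role, went the other way, from 9.08, 9.08 and 8.84 to 8.32, 8.34 and 8.49 (-0.61, SE 0.106, adjusted p = 0.00177). The chemokine Ccl8 was at 6.46, 5.76 and 6.07 and then at 5.47, 4.99 and 4.91 (-0.98, SE 0.173, adjusted p = 0.00206), and was detected on 1 of the 3 DZNep arrays.

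Of 42 listed developmental regulators known as PRC2 targets in stem cells 13 were measured, 2 rose and 2 fell (15.4% each, near the 13.5% and 12.8% of all genes), with a median change of 0.13. Sox9, a transcription factor of kidney and cartilage, was at 10.88, 10.87 and 10.90 in high glucose and at 9.62, 9.66 and 9.55 with DZNep (-1.27, SE 0.0665, adjusted p = 7.13e-07), and fell by 1.22 at its further probe. Bmp4 also belongs to this list, and the homeobox gene Dlx1 fell by 0.48 (adjusted p = 0.00207). Of 24 measured of 39 HOX genes 2 rose (8.33%, against 13.5% of all genes) and 6 fell (25%, against 12.8%). Among them were Hoxd8 at -0.49 (adjusted p = 0.0019), Hoxa5 at -0.43 (adjusted p = 0.000868) and Hoxd9 at 0.43 (adjusted p = 0.00624). Of 10 measured of 24 imprinted genes 3 rose and 3 fell (30% each, against 13.5% and 12.8% of all genes). Peg10, a gene derived from a retrotransposon, was at 5.82, 5.82 and 6.04 and then at 6.96, 7.02 and 7.12 (1.14, SE 0.109, adjusted p = 3.79e-05), Peg3 rose by 0.73, and the cell cycle inhibitor Cdkn1c fell by 0.60 (adjusted p = 0.00761). Of 25 germline genes 1 was measured, the homeobox gene Rhox5, which rose by 0.76 (adjusted p = 0.00107). Promoters of genes that rose and fell had like CpG contents: the median observed over expected CpG ratio was 0.73 and 0.74, against 0.74 for all 7917 genes with a window.

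Endothelial and leukocyte markers were mostly not detected or dim, whereas many mesangial, tubular and parietal markers were measured. Of all genes 13.5% rose and 12.8% fell. Of 13 endothelial markers 5 were measured, 3 rose (60%) and 0 fell: Eng (0.64), Esam (0.56) and Ehd3 (0.52, adjusted p = 0.00198). The summed intensity above background of the 5 measured endothelial markers ran from 463 to 487 in high glucose and from 626 to 721 with DZNep. The defining genes Pecam1 and Cdh5 were detected on 0 of the 6 arrays. The calls on Eng and Esam ended without single arrays (adjusted p up to 0.12 and 0.0786). Of 12 leukocyte markers 2 were measured and 1 rose (50%), Csf1r (0.50, adjusted p = 0.0298), with sums of 82.8 to 133 and 147 to 177, and the defining Ptprc and Itgam were detected on 0 arrays. Of 13 mesangial, smooth muscle and fibroblast markers 7 were measured, 3 rose (42.9%) and 0 fell, led by Gata3 (0.91, adjusted p = 0.000681), with sums of 63000 to 65700 in high glucose and 60900 to 64400 with DZNep, and Myh11 on 0 arrays. Of 14 tubular markers 9 were measured, 2 rose and 2 fell (22.2% each), with sums of 21700 to 22800 and 19500 to 20800, and with Umod, Aqp2 and Epcam on 0 arrays. Lrp2, the receptor megalin, rose by 0.50 (adjusted p = 0.00348). Of 10 parietal epithelial markers 8 were measured and 1 fell (12.5%), Pax8 (-0.49, adjusted p = 0.0417), with sums of 6090 to 6900 and 6310 to 6540. That call ended under 12 alternatives (adjusted p up to 0.153). Of 21 globin and heme genes 11 were measured, 2 rose (18.2%) and 1 fell (9.09%), Hba-a1 being the largest change. The part of such cells in the changes of other genes was not tested.

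The same agent was also given at normal glucose, on separate arrays, which shows how far the changes seen in high glucose were found without it. There 3477 of the 9724 genes (35.8%) were called. Called in both were 1676 genes, 65.6% of the calls in high glucose and 48.2% of those at normal glucose, and 1653 of them went the same way. Across the 9724 genes the changes correlated at a Pearson's r of 0.68 and a Spearman's rho of 0.62; the genes are not independent replicates, and the 12 arrays were normalized together. All 30 of the largest changes in high glucose were called in the same direction at normal glucose: C2cd4a changed by 2.53 there against 2.62, Fgd3 by 1.86 against 2.04, Mrgprf by -1.43 against -2.06 and Tgfbi by -1.76 against -1.39. At normal glucose 21.4% of all genes were higher and 14.3% lower. Against these shares, 18 of 26 interferon-stimulated, 16 of 27 MAP kinase and 10 of 27 p53 genes were higher there, and 7 of 21 glycolytic and 20 of 51 ribosomal protein genes were lower.

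**Figure D4:**
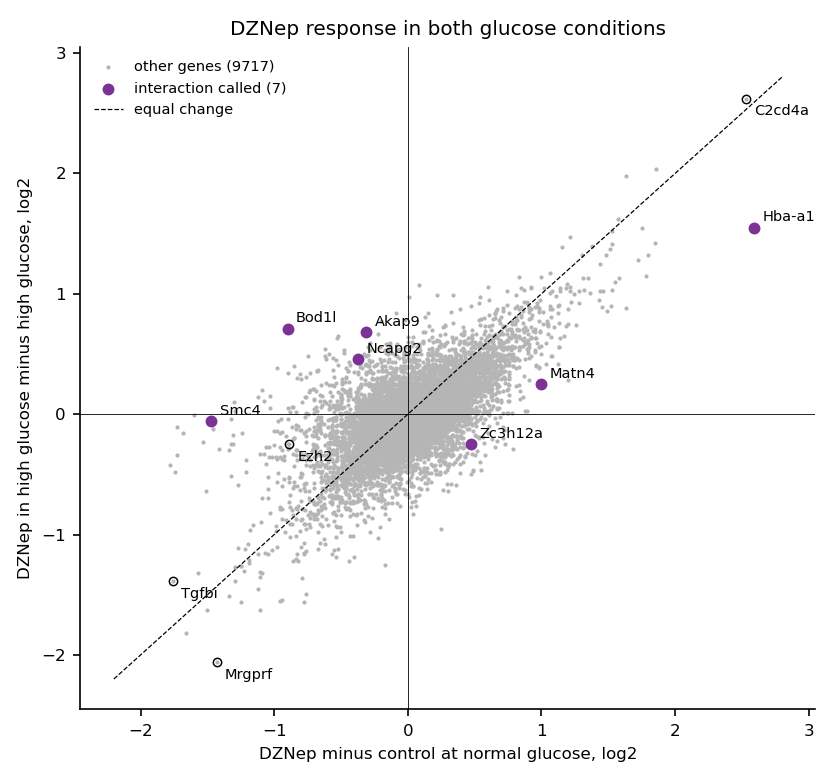
Log2 change with DZNep in high glucose (vertical) against that at normal glucose (horizontal), 1 point per gene, with the dashed line where both are equal. The 7 genes whose responses differed at an adjusted p under 0.05 are purple and named, and circles mark 4 other genes named in the text.

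A call in one condition and not in the other is no evidence of a difference, so the difference itself was tested as an interaction. At an adjusted p under 0.05 it was called in 7 genes (0.072%), and 1609 genes had an unadjusted p under 0.05. The response was higher in high glucose for Bod1l, Smc4, Akap9 and Ncapg2 and lower for Hba-a1, Matn4 and Zc3h12a. This count ran from 0 to 173 over the alternatives, with 1031 to 2099 genes at an unadjusted p under 0.05. It was 0 without replicate 1 or 3 of DZNep, without any single array of high glucose plus DZNep, and without replicate 2 or 3 of high glucose, 1 without replicate 1 of high glucose, 57 without control replicate 1 and 17 without control replicate 2. Ezh2 stood at 11.24 ± 0.20 (SD, n = 3) in control cells and at 10.35 ± 0.05 (SD, n = 3) with DZNep at normal glucose, a change of -0.89 against -0.25 in high glucose. The difference of 0.64 did not pass (SE 0.132, adjusted p = 0.0868). High glucose alone differed from control by -0.49 for Ezh2 (adjusted p = 0.0528), a difference that shares the high glucose arrays with the DZNep response. For Txnip the change with DZNep was 0.31 at normal glucose and -0.06 in high glucose, and the difference of -0.37 did not pass (SE 0.0856, adjusted p = 0.0977).

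**Figure D5:**
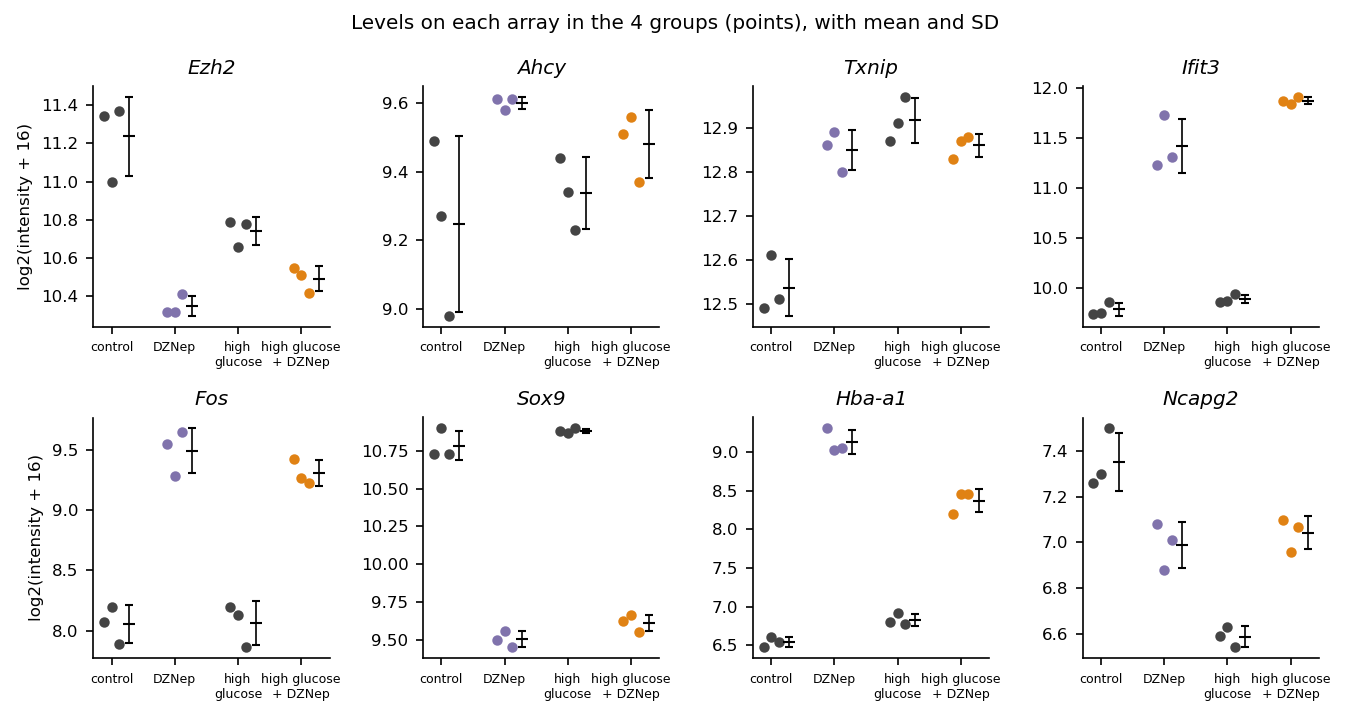
Level of 8 genes on each array (points, log2 of intensity plus 16) in the 4 groups of 3 arrays, with the mean and SD of each group as a bar. With DZNep Ifit3, Fos and Hba-a1 lie above and Sox9 below the matching arrays without it, Ezh2, Ahcy and Txnip did not pass the test in high glucose, and Ncapg2 goes opposite ways at normal and high glucose.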

How the data were processed

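Biotinylated cRNA made from total RNA of 12 samples was read on Illumina mouse arrays, per the labels' protocols. Raw signals of each probe are deposited, on a linear intensity scale, and a p-value of detection stands beside each, per the file headers. The submitters' processing notes name GenomeStudio without a version. The authors also deposited processed intensity values. On each array these followed the raw signal linearly (factor 0.832 to 1.12), with a common mean of 568.254, medians of 9.97 to 11.39 and 32.6% to 36% of values below 0; what the subtracted offset was meant to remove is unknown.

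Here limma 3.58.1 in R 4.3.3 was used: neqc estimated the background from detection p-values, added an offset of 16, normalized the 12 arrays by quantiles and took log2. The platform annotation gives 1 symbol for 34885 of the 45281 probes, several for 18 and none for 10378; 34807 were matched to RefSeq (GRCm38.p6). Each gene stands for its brightest probe among the 15256 that passed detection. The 4 group means were fitted with lmFit and eBayes (11.45 degrees of freedom with the prior), and p-values were adjusted over all 9724 genes by the Benjamini-Hochberg method. Further probes were fitted in the same way over all probes that passed. Where no array of a group detected a gene, its change is given as at least N-fold, against the higher of the lowest detected signal and the gene's own. Replicates were not paired in the main fit. The script was tested on simulated data.

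The members and the 46 gene lists were chosen with earlier results of these data known. Named were 9 genes of the drug's and the cell's pathways (Txnip, Pax6, Synpo, Nphs1, Ahcy and 4 of PRC2), the 15 largest called changes each way whose groups do not overlap, provisional gene models left out, up to 5 genes each way that crossed detection, up to 6 interaction genes each way, and up to 4 called members of each list by size or, where none passed, 2 with the smallest p. Promoters were taken for up to 3 genes of the list with the largest share higher and of that with the largest share lower. The windows of the former are shown and those of the latter are described. Further list members were named after their values were seen. The closing section gives the alternatives.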

Additional observations from a re-analysis of the deposited data

Results flagged for a closer look

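The response to DZNep differed between high and normal glucose, by the interaction test in limma, in 7 genes. In each the difference is the change in high glucose minus that at normal glucose on the log2 scale, over 3 arrays a group. Bod1l rose by 0.71 in high glucose and fell by 0.90 at normal glucose, a difference of 1.61 (SE 0.21, adjusted p = 0.0315). Its levels were 7.25, 6.81 and 6.84 in high glucose and 7.67, 7.57 and 7.79 with DZNep added, and 7.68, 7.62 and 8.16 in control cells and 6.86, 6.87 and 7.03 with DZNep. Akap9, a scaffold of the centrosome and Golgi, differed by 0.99 (SE 0.134, adjusted p = 0.0315), with changes of 0.68 and -0.31. Ncapg2, a condensin subunit, differed by 0.82 (SE 0.116, adjusted p = 0.0315), with 0.46 and -0.37. In these 3 genes the directions were opposite, and high glucose alone lay below control, by 0.86, 0.61 and 0.77 on the log2 scale in that order. The interaction that chose these genes uses the same control and high glucose arrays, so the choice itself favours such a difference.

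Smc4, another condensin subunit, differed by 1.41 (SE 0.216, adjusted p = 0.0475): it fell by 1.47 at normal glucose and changed by -0.06 in high glucose (adjusted p = 0.813), and its further probe changed by 0.03 there. Hba-a1 rose in both conditions, by 1.55 in high glucose and 2.59 at normal glucose, a difference of -1.05 (SE 0.136, adjusted p = 0.0315). Matn4, a matrilin, differed by -0.75 (SE 0.104, adjusted p = 0.0315), with 0.25 in high glucose and 1.00 at normal glucose. Zc3h12a, an RNase that limits cytokine mRNA, differed by -0.72 (SE 0.11, adjusted p = 0.0475), with -0.25 and 0.47. Control replicate 3 was the highest control array for Bod1l, Akap9, Ncapg2 and Smc4. Without it the interaction was called in 6 genes. The differences of single genes without it are not given here, so its part in them is not judged.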

How the results depend on the processing

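Each of the 23 alternatives changed 1 step, some in more than 1 respect, such as the authors' processed values. A slide or scan block was not run, as the files give neither. Of 187 named genes that were called, 121 stayed called under every alternative that tested them. Genes higher and lower numbered 814 and 708 with arrays centred on their medians, and 836 to 1436 and 792 to 1374 when single arrays were left out. The interaction count moved from 7 to 165 without background correction, 16 with median centring, 14 with offset 50, 4 in the authors' processed values, 0 without a filter, 13 with detection p under 0.01 on all 3 arrays of a high glucose group, 173 with a trended robust variance, and 0 to 57 when single arrays were left out. In limma, the settings with 0 interaction genes had 1250 to 2099 at an unadjusted p under 0.05, against 1609 in the main one. Ezh2 passed the threshold at -0.236 without background correction, -0.252 in the 6 arrays alone, -0.36 as the mean of its probes and -0.253 with a trended robust variance, and lay between -0.294 and -0.217 when single arrays were left out, passing only without control replicate 2 (-0.252, adjusted p = 0.0187). Setd7 turned to 0.168 as the mean of its probes. When single arrays were left out Suz12 ran from -0.118 to 0.01 and Smc4 from -0.119 to 0.016. The causes were not tested.

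Same-numbered arrays of high glucose and of high glucose plus DZNep deviated from their group means with correlations of 0.08, 0 and 0.08. For arrays of unlike number these ran from -0.13 to 0.06. With 3 arrays a group, such values cannot show whether the numbers pair the arrays. With the replicate number as a replicate block 1220 genes were higher and 1184 lower, Ezh2 changed by -0.253 and the interaction was called in 0 genes.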
